A study of Rattus norvegicus with 24 samples.

Results

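Extraocular muscles (EOM) were compared with the extensor digitorum longus (EDL) in rats (Rattus norvegicus) aged 30 months, the oldest of 3 ages in the series. Extraocular muscles are the small muscles that rotate the eye, and the EDL is a hindlimb muscle that lifts the toes and is built mainly of fast fibres. The comparison used the 8 arrays whose titles name 30 months, 4 of EOM and 4 of EDL, out of 24 arrays in all; the other 16 hold the same muscles at 6 and 18 months. Each array carried RNA pooled from 4 rats, so spread between arrays is spread between pools, and the sources used here do not say whether an EOM pool and an EDL pool came from the same rats. No treatment, transgene or surgery is named for any group, and strain and sex are not given either. The arrays were Affymetrix Rat Genome U34 chips, on which a transcript is read by a probe set, and a level is given here in arbitrary signal units.

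Muscle fibres take their speed from the myosin heavy chain they hold, and their fuel use from the enzymes that supply its ATP. Limb muscles carry slow and fast adult myosins, while extraocular muscles add an extraocular myosin and keep embryonic and perinatal forms that limb muscles lose after birth. Adult fibres confine acetylcholine receptors to the nerve contact and make fetal-type receptor genes, myogenin and related factors again when the nerve is lost.

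Among the 8740 probe sets other than the array's controls, 5741 passed a filter on low signal and were tested. The median signal on the 8 arrays lay between 105.2 and 129.4 units. Each array had a floor, its 25th percentile, of 24.3 to 33.3 units, and lower values were raised to it before log2 was taken. Replicate 1 of EDL at 30 months stood apart from its group, with a median Spearman correlation of 0.879 to the other arrays of the group over the tested probe sets, against 0.918 to 0.929 for EDL replicates 2 to 4; the lowest value among all other arrays was 0.884. The signal of the 3' beta-actin probe set over that of the 5' one, a sign of RNA integrity, was 1.32 ± 0.121 in EOM and 1.67 ± 0.275 in EDL (SD, n = 4 each; exact two-sided permutation p = 0.114, where 0.0286 is the smallest that 4 against 4 arrays can give). The GAPDH ratio was 1.15 ± 0.0234 and 1.09 ± 0.0793 (exact permutation p = 0.171). The hexokinase ratio was 3.18 ± 0.852 and 3.09 ± 3.53 (exact permutation p = 0.457), with 0.556 in EDL replicate 1 and 8.26 in EDL replicate 3. These permutation tests compared mean log2 ratios, not the means printed. On that scale EOM minus EDL was -0.33 for beta-actin, 0.083 for GAPDH and 0.71 for hexokinase. The part of RNA integrity in the results below was not tested. All p-values below are from limma, adjusted over all probe sets tested, and a probe set or gene was called at an adjusted p under 0.05.

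EOM and EDL differed at 30 months in 1103 of 5741 probe sets (19.2%), of which 656 were higher and 447 lower in EOM. Without EDL replicate 1 the count was 913. Large differences ran mostly one way: 126 probe sets were at least 4-fold higher in EOM and 36 at least 4-fold lower, and 17 against 2 differed at least 16-fold. Read by gene, each through its brightest probe set, 417 of 3419 genes were higher (12.2%) and 274 were lower (8.01%), with a median log2 difference of -0.05 over all genes. The counts of the gene lists below are to be read beside these shares. The arrays of the muscles did not overlap, with all 4 of one above all 4 of the other, in 422 genes higher in EOM (12.3%) and 368 genes lower in EOM (10.8%). The probe sets called at 30 months in the same direction as at both 6 and 18 months numbered 415 higher and 202 lower. A further 91 higher and 140 lower were called at 30 months and at neither younger age, which by itself does not show that the difference had changed. Of 75 other probe sets of 50 called genes named here, 69 had the sign of the brightest one, 44 were called in that direction and 0 in the other by limma.

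**Figure D1:**
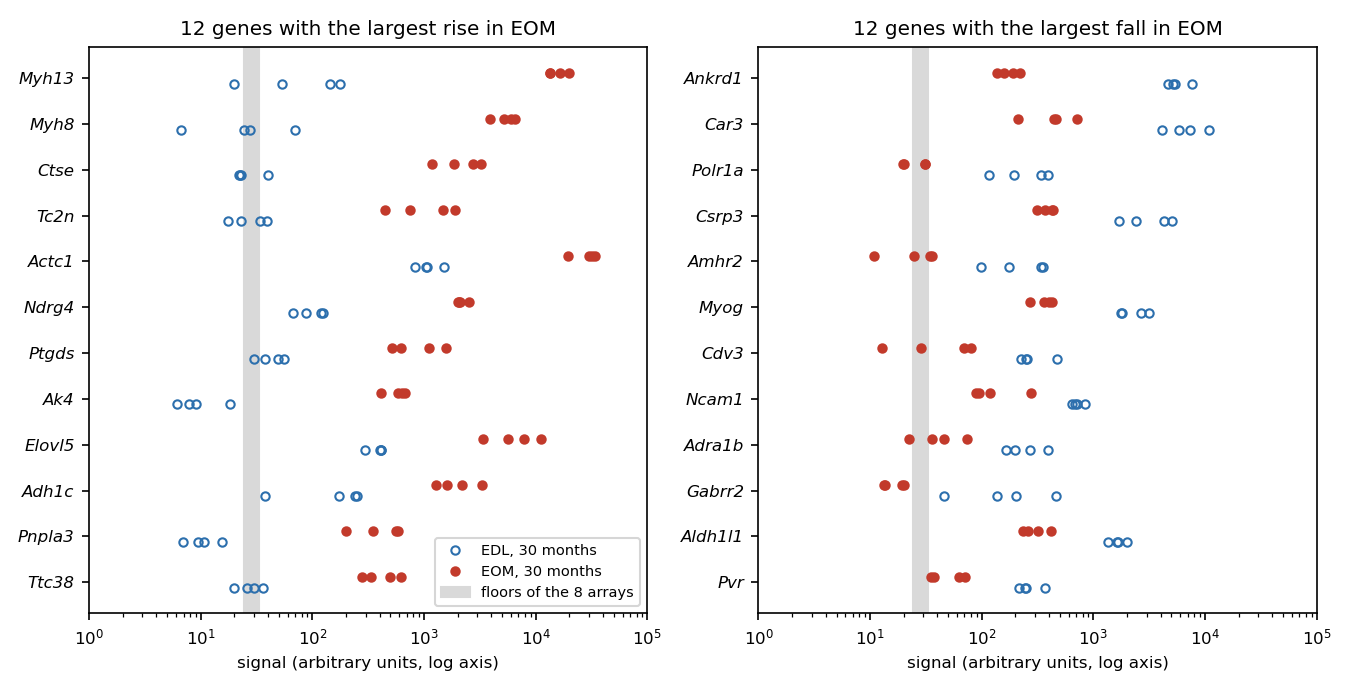
Signal on each of the 8 arrays at 30 months (log axis, arbitrary units) for the 12 genes with the largest rise in EOM and the 12 with the largest fall among called genes whose arrays did not overlap. Filled red points are EOM arrays, open blue points EDL arrays, and the grey band spans the floors of the 8 arrays, 24.3 to 33.3 units; Myh13 lies at 13341.6 units or more in EOM and at 175.3 or less in EDL.

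Myh13 and Myh8 had the largest rises in EOM of the genes named here, and Myh3 was higher as well. Myh13 (Entrez gene 29605), the extraocular myosin, read 16475.8, 19959.6, 13385.6 and 13341.6 units in EOM and 175.3, 144.4, 53.6 and 19.9 in EDL. Every EOM array lay far above every EDL array, and 1 EDL array was at its floor. The log2 difference was 7.62 (SE 0.35, adjusted p = 7.03e-14), or 196-fold. Myh8 (252942), the perinatal myosin, read 5231.0, 6536.8, 6042.4 and 3906.6 in EOM and 6.7, 69.9, 24.2 and 27.4 in EDL. The groups did not overlap, and 3 of the 4 EDL arrays were at the floor; the log2 difference was 7.15 (SE 0.25, adjusted p = 2.55e-16). Myh3 (24583), the embryonic myosin, read 26929.6, 28703.5, 19844.0 and 33067.0 in EOM and 1968.2, 3491.7, 3653.4 and 3291.5 in EDL, a log2 difference of 3.15 (SE 0.27, adjusted p = 4.05e-09). EDL replicate 1 was the lowest of the EDL arrays for Myh3, and without it the difference was 2.94. The size depended on the probe set: 4 others of Myh3 were also called higher, at 5.21, 4.67, 4.27 and 1.39.

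Of the adult fast and slow myosins, Myh2 alone was called at 30 months. Myh2, the fast 2A myosin, averaged 10310 ± 1890 units in EOM and 15560 ± 2840 in EDL, a log2 difference of -0.59 (SE 0.17, adjusted p = 0.015). The 4 EOM arrays lay below the 4 EDL arrays, but the call was lost without EOM replicate 4 (adjusted p = 0.0718) and without EDL replicate 2 (0.0579), and after quantile normalisation and median centring. Myh4, the fast 2B myosin, averaged 15560 ± 1660 and 18460 ± 2620 (log2 -0.24, SE 0.15, adjusted p = 0.294), and its arrays overlapped. Myh1, the fast 2X myosin, was at log2 -0.93 (SE 0.35, adjusted p = 0.0621). Myh7, the slow myosin, was at log2 0.15 (SE 0.34, adjusted p = 0.815), against -1.06 at 6 months and -0.03 at 18 months. Of 8 myosin heavy chains measured, 3 were higher, 1 was lower and 4 were not called. By RefSeq gene order (assembly GRCr8) the skeletal chains lie side by side on chromosome 10, in the order Myh3, Myh2, Myh1, Myh4, Myh8 and Myh13, so the 3 genes that were higher in EOM stand at both ends of the row and the fast adult chains between them. Their sequences are alike, and how far each probe set reads a neighbour was not tested.

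All called members of a list of fast sarcomere genes had less signal in EOM. The list also holds Mybpc1, the slow type of myosin-binding protein C, and the enzymes Ampd1 and Pygm; Mybpc1 and Ampd1 are among the members called. Of 15 measured genes on the fast sarcomere list, 9 were lower and 0 higher in the limma fit (13 and 0 at an unadjusted p under 0.05), and none had a positive difference; the median was -0.64, against -0.05 over all genes. The same list counted 6 lower after quantile normalisation and 5 lower after median centring, with no member positive in either, and 8 lower without EDL replicate 1. Its median was -0.31, -0.62 and -0.56 in these settings, so the size of the difference depended on the scaling. Ampd1, the muscle AMP deaminase, averaged 2624 ± 647 units in EOM and 7101 ± 1550 in EDL (log2 -1.44, SE 0.22, adjusted p = 3.85e-05). Mybpc2, the fast myosin-binding protein C, read 7939.1, 10055.0, 7635.9 and 6521.9 in EOM and 21009.2, 21454.7, 17928.2 and 15436.7 in EDL. The highest EOM array was below the lowest EDL array, with a log2 difference of -1.24 (SE 0.18, adjusted p = 2.02e-05). Ldb3, a Z-disc protein, was at log2 -1.10 by its brightest probe set (SE 0.25, adjusted p = 0.00311), but the 2 others were at -0.08 and -0.19 and were not called (adjusted p = 0.86 and 0.653). Tnni2, the fast troponin I, was at -0.56 (SE 0.15, adjusted p = 0.00821). Tnnt3, the fast troponin T, was at -0.53 (adjusted p = 0.0693), and Pygm, muscle glycogen phosphorylase, at -0.52 (adjusted p = 0.061); neither passed by its brightest probe set, although the arrays did not overlap. A second Pygm probe set was called lower (log2 -0.55, adjusted p = 0.014).

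The slow and cardiac sarcomere list split, with 3 genes higher, 3 lower and 5 not called among 11 measured (median 0.06, and -0.01 after quantile normalisation). Actc1 (29275), the cardiac alpha-actin of developing muscle, read 29977.6, 34238.7, 19290.7 and 31778.2 units in EOM and 1050.9, 1498.5, 1059.1 and 828.6 in EDL. The groups did not overlap, with a log2 difference of 4.70 (SE 0.45, adjusted p = 3.5e-08). Tpm3, the slow tropomyosin (log2 1.40, SE 0.30, adjusted p = 0.00167), and Tnnt2, the cardiac troponin T that embryonic muscle also makes (1.34, SE 0.32, adjusted p = 0.00396), were also higher. Actn2, the alpha-actinin of the Z-disc, was lower (log2 -1.06, SE 0.19, adjusted p = 0.000184). Csrp3 (117505), the muscle LIM protein of the Z-disc, read 372.5, 315.6, 437.5 and 427.4 in EOM and 1702.4, 4288.4, 5030.4 and 2389.6 in EDL. The EDL arrays were widely spread, and the lowest of them was above every EOM array (log2 -2.99, SE 0.47, adjusted p = 5.53e-05).

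Ankrd1 (27064), a cardiac ankyrin repeat protein that binds titin and responds to stretch and load, was the gene with the largest fall. It read 219.5, 137.8, 189.4 and 158.2 units in EOM and 7628.4, 5174.7, 4640.2 and 5349.2 in EDL. The groups did not overlap, and the log2 difference was -5.01 (SE 0.40, adjusted p = 1.72e-09), or 32.2-fold lower in EOM. At 6 and 18 months the difference was -2.03 and -1.51. The EOM level was 161 ± 27.7, 175 ± 9.94 and 176 ± 35.8 at 6, 18 and 30 months, and the EDL level 843 ± 711, 566 ± 355 and 5698 ± 1320. The 30-month difference was below the mean of the younger ones by -3.24 on the log2 scale (SE 0.49, adjusted p = 0.000675), and this call held in 34 of 35 alternatives.

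Calcium handling showed no common direction: 5 of 24 measured genes were higher, 4 were lower and the median was -0.27. The shares over all genes were 12.2% higher and 8.01% lower. Pln, phospholamban, which restrains the calcium pump of slow and cardiac fibres, read 196.1, 249.5, 326.5 and 146.3 units in EOM and 9.8, 36.7, 64.0 and 36.1 in EDL. The arrays did not overlap (log2 2.42, SE 0.40, adjusted p = 0.000103), and 1 EDL array was at the floor. Casq2, the cardiac calsequestrin that stores calcium, was at log2 1.57 (SE 0.40, adjusted p = 0.00624). Atp2b2, a calcium pump of the cell membrane, was at the floor on all 4 EDL arrays and at 92.1, 130.1, 121.8 and 92.9 units in EOM (log2 1.89 against the floor, adjusted p = 0.000137). Cacng1, the gamma subunit of the dihydropyridine receptor in fibre membranes, read 1028.7, 1407.3, 938.9 and 1165.8 in EOM and 3399.6, 2802.6, 3554.0 and 3538.3 in EDL, without overlap (log2 -1.56, SE 0.15, adjusted p = 3.5e-08). The fast calcium pump Atp2a1 (log2 -0.34, adjusted p = 0.228) and the calcium buffer Pvalb (-0.59, adjusted p = 0.161) did not pass. The slow pump Atp2a2 did not pass by its brightest probe set (0.75, adjusted p = 0.142), while of 3 others 1 was called higher (1.37, adjusted p = 0.0254) and those at 0.89 and -0.14 were not.

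Of 13 measured ion channels and pumps of the fibre membrane, 3 were higher and 3 lower, and the beta subunits of the sodium pump went opposite ways. Atp1b1 read 15886.5, 17837.6, 15220.8 and 18226.2 units in EOM and 3764.9, 5178.2, 5340.9 and 5507.7 in EDL (log2 1.77, SE 0.22, adjusted p = 1.56e-06). Atp1b2, the isoform of fast fibres, read 283.4, 127.4, 314.3 and 293.2 in EOM and 1585.0, 666.1, 1467.8 and 934.4 in EDL (log2 -2.19, SE 0.40, adjusted p = 0.000269). In both genes all arrays of one muscle lay on one side of the other. Kcnma1, a calcium-activated potassium channel also found in vessel walls, was higher in EOM (log2 1.39, SE 0.29, adjusted p = 0.00104), and by a second probe set at 3.43 (adjusted p = 2.91e-07).

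Enzymes of glucose use differed by isoform. Among 30 measured genes of glycolysis and glycogen, 9 were higher and 8 lower, and the median was -0.46. Hk1, the hexokinase of brain and oxidative tissue, read 1694.7, 1335.8, 1335.5 and 1301.3 units in EOM and 184.8, 299.2, 311.5 and 229.1 in EDL, without overlap (log2 2.49, SE 0.19, adjusted p = 6.53e-10); a dimmer Hk1 probe set was at 0.43, uncalled. Aldoc, the brain aldolase, was at log2 2.73 (SE 0.39, adjusted p = 1.82e-05), and Ldhb, the heart form of lactate dehydrogenase, at 2.20 (SE 0.34, adjusted p = 3.9e-05). The lower genes included Slc16a3, the lactate exporter of fast fibres (log2 -1.63, SE 0.25, adjusted p = 4.53e-05), Fbp2, the muscle fructose bisphosphatase (-1.25, SE 0.32, adjusted p = 0.00701), and Pfkfb1, which sets fructose 2,6-bisphosphate (-1.48, SE 0.32, adjusted p = 0.00177). Of 3 other Pfkfb1 probe sets, 1 was called lower (-1.13) and those at -0.77 and 0.14 were not called.

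Genes of fat and ketone use were more often higher: 15 of 43 measured genes on the list of fatty acid oxidation, ketone use and TCA cycle were higher, 2 were lower and 26 were not called, with a median of 0.25. Bdh1, which makes and uses the ketone body hydroxybutyrate, read 506.9, 477.3, 445.5 and 385.0 units in EOM and 76.6, 8.5, 11.8 and 17.8 in EDL. EDL replicate 1 was the highest EDL array, the other 3 were at the floor, and all lay below EOM (log2 3.65, SE 0.48, adjusted p = 4.08e-06). Acsl5, which activates fatty acids, read 973.4, 1085.6, 2011.2 and 3080.0 in EOM and 158.5, 88.1, 155.6 and 166.0 in EDL (log2 3.54, SE 0.33, adjusted p = 1.76e-08). It was highest in EOM replicates 3 and 4, as were several lipid genes described below, and the part of cells other than fibres was not tested. Ech1, an enzyme of unsaturated fat oxidation, was at 1.55 (SE 0.17, adjusted p = 4.94e-07). The brake on pyruvate oxidation Pdk4 (log2 -1.34, adjusted p = 0.0891) and the uncoupling protein Ucp3 (-0.55, adjusted p = 0.252) did not pass.

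In the respiratory chain list 3 of 34 measured genes were higher and 1 lower, with a median of 0.07; after quantile normalisation 6 were higher and 0 lower in limma, with a median of 0.14. In the main fit 12.2% of all genes were higher and 8.01% lower, so the list held fewer calls in each direction than its size would give. The widely expressed subunits Cox6a1 (log2 1.17, SE 0.20, adjusted p = 0.00011) and Cox8a (1.13, SE 0.31, adjusted p = 0.0104) of cytochrome oxidase were higher, while the muscle subunit Cox8b was at 0.37 (adjusted p = 0.308). Slc25a5, an ADP/ATP carrier, was higher as well (log2 1.58, SE 0.16, adjusted p = 5.42e-08). In the creatine kinase and adenylate list, 2 of 11 genes were higher and 3 lower. Ak4 (29223), a mitochondrial adenylate kinase, was at the floor on all 4 EDL arrays and read 678.5, 585.8, 629.8 and 407.4 units in EOM, at least 19.4-fold higher (log2 4.27, SE 0.25, adjusted p = 7.41e-12). Ckmt2, the mitochondrial creatine kinase, was higher by log2 0.46 (SE 0.12, adjusted p = 0.00632), a call lost after median centring and within either set of replicates and not made by a second probe set (0.41, adjusted p = 0.0626), and Ckm, the muscle creatine kinase, was at -0.36 (adjusted p = 0.382). Ampd3, the AMP deaminase of red cells that atrophying muscle makes, read 163.0, 178.8, 168.4 and 143.0 in EOM and 873.3, 942.1, 525.6 and 502.0 in EDL. Its groups did not overlap (log2 -2.07, SE 0.50, adjusted p = 0.00454), and at 6 and 18 months its difference was 0.17 and 0.86; the change of -2.58 did not pass (adjusted p = 0.063).

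Several acetylcholine receptor genes had another muscle difference at 30 months than at the younger ages. Of 21 measured genes on the neuromuscular junction and denervation list, 3 were higher and 3 lower in EOM at 30 months (median 0.24). Without EDL replicate 1 the counts were 1 and 2, and within replicates 3 and 4 limma called 0 in either direction. At 6 months 11 were higher and 0 lower in the limma fit (median 0.70), and at 18 months 9 were higher and 0 lower (median 0.54). The shares over the whole gene table were 12.3% higher and 6.43% lower in EOM for the 6-month contrast, against 15.2% and 9.01% for the 18-month one. In limma 0 of the list were lower at an unadjusted p under 0.05 at either younger age. The difference at 30 months was tested against the mean of the differences at 6 and 18 months. Over all probe sets this contrast was called in 24 of 5741 (0.418%), all of them lower at 30 months; 0 were higher in limma, against 88 higher and 202 lower at an unadjusted p under 0.05. By gene, 14 of 3419 were called (0.409%), and 5 of the 21 junction genes were among them. The junction list was written with earlier results of these data known. No set test was made, and the overlap is not separate support.

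The count of 24 depended on single arrays. It was 14, 11, 12 and 11 without EOM at 30 months replicate 1, 2, 3 or 4, and 12 and 11 without EDL at 30 months replicate 1 or 2. It was 11, 15 and 15 without EOM at 18 months replicate 1, 2 or 3, 12 and 14 without EDL at 18 months replicate 1 or 4, and 43 without EDL at 6 months replicate 3. Within replicates 1 and 2 of all groups it was 13 and within replicates 3 and 4 it was 1, and in none of these settings was a probe set called higher. All 24 had a negative difference in both sets of replicates. They were picked by the contrast over these same arrays, so this sign and the array positions below are not a separate test. In 23 of the 24, every EDL array at 30 months lay above all 8 younger EDL arrays; the exception was Chrnb1, where the lowest old EDL array read 1018.5 and the highest younger one 1027.5. The EOM arrays at 30 months all lay to one side of the younger EOM arrays in 3 of the 24.

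The 150 bases before the RefSeq start of the 5 muscle receptor subunits and of Myog are shown because E-boxes, written CANNTG, are the letters that myogenic factors such as myogenin bind. Capitals mark every CANNTG, searched on both strands (the motif reads the same on each); CAGCTG is one form of it and so is counted in both. Of 33469 promoters in the RefSeq table (assembly GRCr8), 46.6% held CANNTG and 7.63% held CAGCTG in the same window. Of the 10 genes looked up for this comparison, 8 had an entry, and Myh13 and Ankrd1 had none. The windows of Myh8 and Myh4 are not printed: Myh8 held 0 CANNTG, and Myh4 held 1, which was a CAGCTG.
Chrna1, chr3:78877354-78877503, minus strand: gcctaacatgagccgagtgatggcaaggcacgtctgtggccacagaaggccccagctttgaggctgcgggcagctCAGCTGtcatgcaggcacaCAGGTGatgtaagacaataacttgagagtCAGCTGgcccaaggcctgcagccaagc
Chrnb1, chr10:55015108-55015257, minus strand: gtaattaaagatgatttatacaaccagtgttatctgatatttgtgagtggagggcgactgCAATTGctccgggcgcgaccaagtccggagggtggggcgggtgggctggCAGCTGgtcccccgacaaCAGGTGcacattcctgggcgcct
Chrnd, chr9:95310166-95310315, plus strand: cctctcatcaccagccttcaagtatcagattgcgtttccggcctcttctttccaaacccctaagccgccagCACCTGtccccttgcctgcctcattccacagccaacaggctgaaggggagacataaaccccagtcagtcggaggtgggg
Chrne, chr10:55834155-55834304, minus strand: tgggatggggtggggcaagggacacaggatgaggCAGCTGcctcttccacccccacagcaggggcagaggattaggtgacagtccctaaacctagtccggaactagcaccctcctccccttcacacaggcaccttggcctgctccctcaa
Chrng, chr9:95325834-95325983, plus strand: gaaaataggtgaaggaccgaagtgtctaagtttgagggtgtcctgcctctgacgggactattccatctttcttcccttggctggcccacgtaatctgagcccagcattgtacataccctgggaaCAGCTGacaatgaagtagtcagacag
Myog, chr13:48297326-48297475, plus strand: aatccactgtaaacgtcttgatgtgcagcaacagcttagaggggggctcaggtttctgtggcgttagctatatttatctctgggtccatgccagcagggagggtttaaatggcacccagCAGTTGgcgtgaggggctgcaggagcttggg
Chrna1 and Chrnb1 each held 3 CANNTG, and Chrnd, Chrne, Chrng and Myog held 1 each. CAGCTG was present in Chrna1 (2 copies), Chrnb1, Chrne and Chrng and was not among the letters of Chrnd or Myog in this window. A match is a description of the letters, and binding was not measured.

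Chrna1 (79557), the alpha subunit that holds the acetylcholine site, read 2065.5, 1656.8, 1664.5 and 1699.0 units in EOM and 5467.8, 4866.5, 2690.9 and 2702.7 in EDL. All EOM arrays lay below all EDL arrays, and EDL replicates 1 and 2 were above replicates 3 and 4. EOM was lower by a log2 difference of -1.08 (SE 0.30, adjusted p = 0.011), and without EDL replicate 1 by -0.90 (adjusted p = 0.0525). At 6 and 18 months EOM was higher, by 1.93 and 2.07. The EDL level was 494 ± 361, 416 ± 73.4 and 3932 ± 1450 units at 6, 18 and 30 months, against 1622 ± 286, 1720 ± 46.1 and 1771 ± 197 in EOM. The 30-month difference was below the younger mean by -3.08 (SE 0.36, adjusted p = 2.13e-05; 0.000142 without EDL replicate 1), a call held in 34 of 35 alternatives.

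The delta and beta subunits were called for the change as well. Chrnd (54240) read 1301.1, 1243.7, 1135.2 and 1072.7 units in EOM and 1535.5, 1589.8, 601.0 and 961.4 in EDL, with overlap. Its difference was 1.88, 2.30 and 0.12 at 6, 18 and 30 months, and the change of -1.97 (SE 0.41) was called (adjusted p = 0.0321) but not without EDL replicate 1 (0.0944). It held in 23 of 35 alternatives. Chrnb1 (24261) read 1142.6, 1134.2, 1060.1 and 920.3 in EOM and 1368.9, 1186.4, 1190.9 and 1018.5 in EDL, with overlap; its difference was 0.93, 0.43 and -0.16, and the change of -0.84 (SE 0.18, adjusted p = 0.0321) held in 17 of 35.

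The adult and fetal subunits that exchange places after birth were not called for the change. Chrne (29422), the adult epsilon subunit, read 1177.0, 926.3, 943.7 and 1007.7 units in EOM and 680.3, 697.0, 433.8 and 694.8 in EDL, and EOM stayed above EDL on every array (log2 0.71, SE 0.25, adjusted p = 0.0428). This call is slight: it was lost without any one of EOM replicates 1 to 4 (adjusted p = 0.115, 0.0621, 0.0605 and 0.0758) and without EDL replicate 1, 3 or 4 (0.0561, 0.157 and 0.0513). Its difference was 1.46 and 1.72 at 6 and 18 months, and the change was -0.87 (SE 0.30, adjusted p = 0.438). Chrng, the fetal gamma subunit, read 385.2, 423.0, 395.0 and 650.8 in EOM and 526.4, 799.8, 563.3 and 834.1 in EDL, with overlap, and was not called at 30 months (log2 -0.56, adjusted p = 0.147). Ache, acetylcholinesterase, which ends the signal, was at 0.68 (adjusted p = 0.0532).

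**Figure D2:**
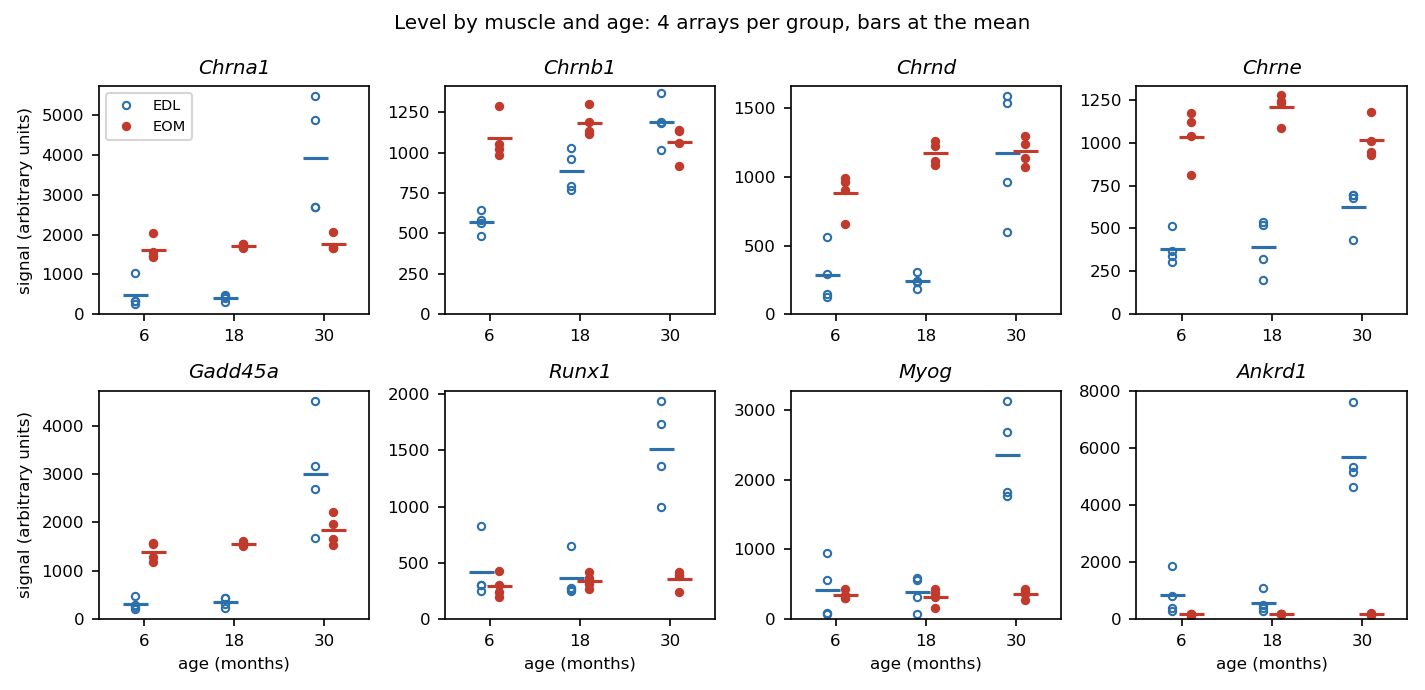
Signal (arbitrary units, linear axis from 0) of 4 acetylcholine receptor subunits, Gadd45a, Runx1, Myog and Ankrd1 in each muscle at 6, 18 and 30 months. Open blue points are EDL arrays, filled red points EOM arrays, and bars mark the mean of 4 arrays; EDL means at 30 months are 3932 units for Chrna1 and 5698 for Ankrd1, against 1771 and 176 units in EOM.

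Other genes known from denervated fibres were measured as well. Gadd45a (25112), a stress gene of muscle that has lost its nerve, read 1977.4, 2216.5, 1655.7 and 1540.3 units in EOM and 4510.8, 3165.4, 1671.5 and 2700.1 in EDL. The groups overlapped and the gene was not called at 30 months (log2 -0.63, SE 0.26, adjusted p = 0.0912), yet EOM was above EDL by 2.24 and 2.18 at 6 and 18 months, and the change was -2.84 (SE 0.32, adjusted p = 1.1e-05). Of 3 other Gadd45a probe sets, 1 was called for the change (-2.67, adjusted p = 0.0321), and those at -1.84 (adjusted p = 0.385) and -0.74 (adjusted p = 1.0) were not. Runx1 (50662), a transcription factor that restrains wasting in denervated fibres, read 384.4, 238.5, 418.0 and 392.9 in EOM and 1941.6, 1358.6, 1732.8 and 999.1 in EDL, without overlap (log2 -2.06, SE 0.35, adjusted p = 0.000113). Its difference was -0.41 and 0.02 before, and the change of -1.87 (SE 0.42, adjusted p = 0.0473) held in only 11 of 35 alternatives, and not without EDL replicate 1 (0.147). Ncam1, the neural adhesion molecule that spreads over denervated fibres, read 117.6, 88.5, 274.4 and 94.7 in EOM and 640.0, 718.4, 842.6 and 681.2 in EDL. It was lower in EOM (log2 -2.48, SE 0.59, adjusted p = 0.00387), and its change of -2.85 did not pass (adjusted p = 0.0893). A second, dimmer Ncam1 probe set was at -0.34 (adjusted p = 0.589), with a change of -0.55.

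Both myogenic factors described here were lower in EOM. Myog (29148), myogenin, read 363.5, 403.5, 424.9 and 270.7 units in EOM and 2682.2, 3123.4, 1766.1 and 1820.5 in EDL, without overlap (log2 -2.66, SE 0.63, adjusted p = 0.00342). At 6 and 18 months the difference was 0.48 and -0.01; the change of -2.90 did not pass (SE 0.77, adjusted p = 0.114). Myod1, the sister factor of satellite cells and fast fibres, read 632.9, 607.3, 646.7 and 466.1 in EOM and 2181.4, 2305.8, 1599.1 and 1353.9 in EDL (log2 -1.64, SE 0.24, adjusted p = 2.42e-05). Cdkn1a, the cell cycle inhibitor p21, was lower (log2 -2.25, SE 0.64, adjusted p = 0.0141), but not called without EOM replicate 2 or 4 (0.0685 and 0.0505). Its change with age was -2.48 and did not pass (adjusted p = 0.3), while a second Cdkn1a probe set was called for it (-3.20, adjusted p = 0.0321). On the list of myogenic regulators and growth control 8 of 32 measured genes were higher and 6 lower.

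Growth factors of this list were called in both directions. Igf2 (24483), the fetal insulin-like growth factor, read 1197.7, 1121.1, 1053.0 and 1010.6 units in EOM and 5642.6, 3972.4, 7405.8 and 2534.4 in EDL. The EOM arrays were close together and the EDL arrays spread widely above them (log2 -2.05, SE 0.26, adjusted p = 2.27e-06). The difference was 0.07 and -0.34 before, and the change of -1.92 (SE 0.31, adjusted p = 0.00163) held in 33 of 35 alternatives of that probe set. A pair of dimmer Igf2 probe sets did not share it: their 30-month differences were -0.77 and -0.47, uncalled, and their changes -0.08 and -0.27 (adjusted p = 1.0 for each). H19, the untranslated RNA made next to Igf2, was lower in EOM at each age, with differences of -0.93, -1.06 and -1.43. Igf1 was higher in EOM by its brightest probe set (log2 1.43, SE 0.32, adjusted p = 0.0021), while 4 other Igf1 probe sets were at 0.07, -0.43, -0.81 and -0.54 and were not called. Mstn, myostatin, which limits muscle growth, was higher (log2 1.68, SE 0.31, adjusted p = 0.000316), as were Id2 (1.74, SE 0.34, adjusted p = 0.000731), a partner that blocks myogenic factors, and Ccnd1 (1.55, SE 0.23, adjusted p = 2.39e-05), cyclin D1. Of 3 other Ccnd1 probe sets, 1 was called higher (1.98, adjusted p = 0.000189) and those at 0.34 and -0.14 were not called. Fst (24373), follistatin, which binds myostatin, read 602.0, 618.7, 572.9 and 504.3 in EOM and 659.8, 728.5, 539.6 and 634.9 in EDL at 30 months. The arrays overlapped, whereas EOM had been higher by 1.93 and 2.87 at 6 and 18 months; the change of -2.55 (SE 0.56, adjusted p = 0.0335) held in 16 of 35 alternatives, and not without EDL replicate 1 (0.0944). A second Fst probe set changed by -1.59 (adjusted p = 0.00602).

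**Figure D3:**
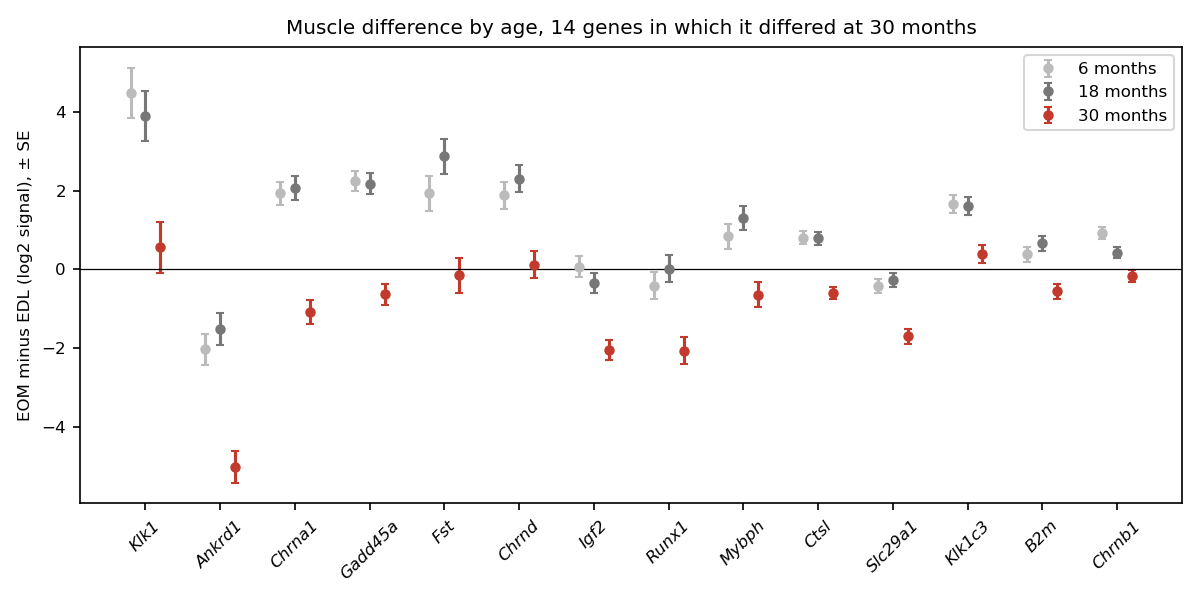
Muscle difference (EOM minus EDL, log2 signal, ± SE from limma over 24 arrays) at 6, 18 and 30 months for the 14 genes in which the 30-month difference was called as unlike the mean of the younger ages, ordered by the size of the change. The red 30-month points lie below both grey points in all 14 genes, with changes from -3.64 for Klk1 to -0.84 for Chrnb1.

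The other genes of that contrast had varied roles. Slc29a1, a nucleoside transporter, read 525.3, 587.0, 486.8 and 498.2 units in EOM and 1826.4, 2314.2, 1183.6 and 1687.4 in EDL (log2 -1.70, SE 0.18, adjusted p = 1.63e-07), with a change of -1.37 (adjusted p = 0.00144). Ctsl, the lysosomal protease cathepsin L, differed by 0.81 and 0.79 at 6 and 18 months and was lower in EOM at 30 months (log2 -0.60, SE 0.16, adjusted p = 0.00899; change -1.41, adjusted p = 0.000223). A second Ctsl probe set, S85184_g_at, had a change of -0.81 that did not pass (adjusted p = 0.228). The probe set S85184_at, which shares the stem of that name but has no single symbol, was called for the change (-2.1, adjusted p = 9.3e-05). B2m, the light chain of class I histocompatibility molecules, changed by -1.07 (SE 0.23, adjusted p = 0.0321; 0.088 without EDL replicate 1). Mybph, myosin-binding protein H, read 5788.1 in EDL replicate 1 against 2575.2, 1629.1 and 1600.8 in the others, and 1698.3, 1919.7, 1427.2 and 1419.6 in EOM; it was not called at 30 months (adjusted p = 0.163), and its change of -1.71 (adjusted p = 0.0412) was not called without that array (0.0944). A second Mybph probe set changed by -2.36 (adjusted p = 0.0321). The probe set AF030089UTR#1_at, with no symbol in the annotation used, read 159.3, 165.7, 74.4 and 138.6 in EOM and 3913.0, 3509.4, 1119.8 and 1631.3 in EDL. It was lower in EOM by log2 -4.12 (SE 0.48, adjusted p = 8.19e-07), after differences of 1.37 and 1.12, a change of -5.37 (SE 0.59, adjusted p = 1.1e-05).

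Klk1 (24523), a tissue kallikrein made in glands, had the largest change of any named gene. It read 6242.3, 5483.7, 3934.7 and 3331.0 units in EOM and 2710.4, 6754.7, 2350.8 and 2219.9 in EDL. The groups overlapped and the 30-month difference was 0.56 (SE 0.64, adjusted p = 0.611), after 4.48 and 3.90 at 6 and 18 months. The EDL mean was 162 ± 171 and 216 ± 131 at the younger ages and 3509 ± 2170 at 30 months. The change of -3.64 (SE 0.78, adjusted p = 0.0321) held in 19 of 35 alternatives and not without EDL replicate 1 (0.088). A second Klk1 probe set changed by -2.40 (adjusted p = 9.3e-05). Klk1c3, a close relative, changed by -1.23 (adjusted p = 0.0465). Kallikrein genes are near-identical copies, so which of them the probe sets read is uncertain.

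**Figure D4:**
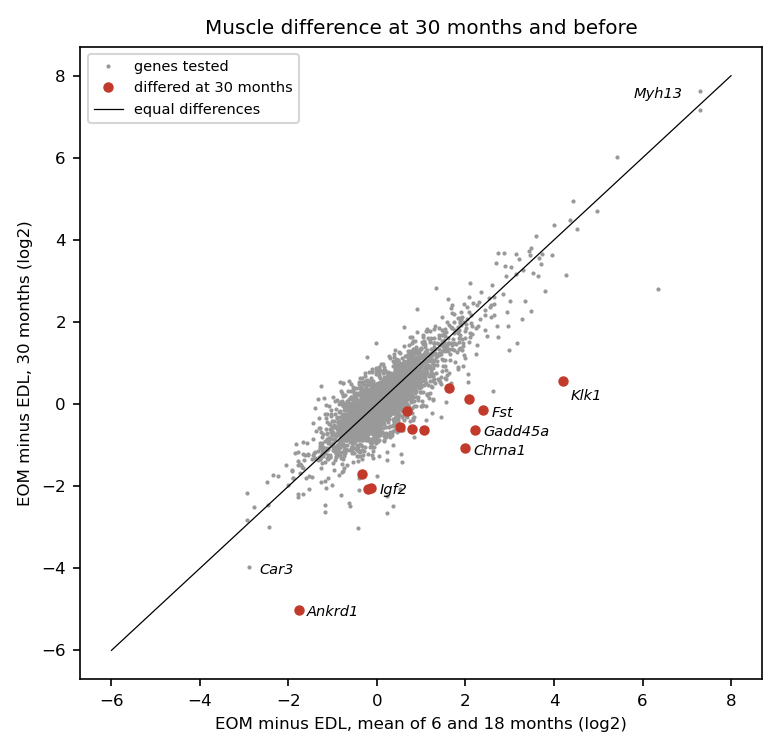
Muscle difference at 30 months (EOM minus EDL, log2) against the mean of the differences at 6 and 18 months for 3419 genes, with the line of equal differences. The 14 genes called for a change, in red, all lie below the line, and Myh13 lies close to it at 7.62.

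Genes that break down proteins were lower in EOM more often than higher. Of 29 measured genes of ubiquitin and the proteasome, 8 were lower and 1 higher, with a median of -0.37; the lower count was 3 after median centring and 5 without EDL replicate 1. Trim63, the muscle ubiquitin ligase MuRF1, read 1274.4, 1224.9, 1106.4 and 1137.5 units in EOM and 5955.6, 3412.9, 2861.1 and 5053.4 in EDL, without overlap (log2 -1.81, SE 0.22, adjusted p = 2.27e-06). The proteasome ATPase Psmc1 was at -0.84 (SE 0.15, adjusted p = 0.000177). Of 48 ribosomal and translation genes, 5 were lower and 0 higher in limma (13 and 0 at an unadjusted p under 0.05). The lower count is near the share over all genes, of which 8.01% were lower and 12.2% higher. In the ribosomal list 1 gene had a positive difference, with a median of -0.28. After median centring 1 of its genes was called lower and 3 were positive. The largest fall on the list was in Eef1a2, the elongation factor of adult muscle and nerve (log2 -1.30, SE 0.23, adjusted p = 0.0002).

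Chaperones and genes that clear oxidants were called higher in EOM more often than lower. Of 27 heat shock and folding genes, 9 were higher and 1 lower (median 0.28), with Hspa1a, inducible Hsp70, at 1.19 (SE 0.25, adjusted p = 0.00112), and Pdia3 and Ppib, which fold secreted proteins, both at 1.08 by their brightest probe sets (0.32, uncalled, by another of Pdia3). Among genes that clear oxidants and toxins, 14 of 43 measured were higher in EOM and 2 lower (median 0.36). Mgst1, a membrane glutathione transferase, read 1721.5, 3659.8, 4025.4 and 6312.8 units in EOM and 295.6, 387.0, 368.1 and 534.3 in EDL (log2 3.20, SE 0.33, adjusted p = 1.09e-07). It too was highest in EOM replicates 3 and 4. Mt3, a metallothionein, read 1396.6, 1116.5, 881.6 and 694.4 in EOM and 100.4, 172.7, 155.0 and 166.2 in EDL (log2 2.77, SE 0.44, adjusted p = 6.61e-05). Neither gene's arrays overlapped. Of 27 early response genes, 6 were lower and 2 higher in EOM (median -0.31, and 0.27 at 18 months), and within replicates 1 and 2 the counts were 2 and 2; over all genes 8.01% were lower. Jun was at -1.55 (SE 0.19, adjusted p = 1.72e-06) and Klf4 at 1.39 (SE 0.22, adjusted p = 7.15e-05).

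Several of the largest differences were in genes outside the contractile lists. Ctse (25424), the aspartic protease cathepsin E, read 1177.1, 1871.1, 3246.7 and 2754.4 units in EOM and 22.3, 39.8, 22.1 and 23.1 in EDL, where 3 arrays were at the floor (log2 6.02, SE 0.37, adjusted p = 1.48e-11). Tc2n (500707), a C2-domain protein, read 446.0, 743.3, 1478.4 and 1872.8 against 38.9, 23.1, 33.7 and 17.4 (log2 4.96, SE 0.38, adjusted p = 1.01e-09). Ndrg4 (64457), a gene of brain and heart, read 2512.9, 2103.7, 2047.7 and 2010.7 against 86.7, 66.9, 119.0 and 123.9 (log2 4.49, SE 0.24, adjusted p = 2.21e-12). Ptgds (25526), prostaglandin D synthase, read 512.4, 616.1, 1106.2 and 1556.0 against 56.1, 29.7, 49.3 and 37.4 (log2 4.36, SE 0.40, adjusted p = 1.76e-08). In each of these genes the groups were far apart, and in Ctse, Tc2n and Ptgds EOM replicates 3 and 4 were above replicates 1 and 2.

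Several lipid genes that were high in EOM also had their highest levels in EOM replicates 3 and 4. Elovl5 (171400), which lengthens polyunsaturated fatty acids, read 3400.4, 5599.2, 7865.6 and 11050.8 units in EOM and 294.5, 400.8, 410.4 and 410.7 in EDL (log2 4.09, SE 0.27, adjusted p = 7.01e-11). Fasn, fatty acid synthase, read 882.6, 1622.5, 1960.4 and 3288.3 in EOM and 34.9, 185.5, 200.8 and 265.7 in EDL (log2 3.68, SE 0.47, adjusted p = 3.33e-06). Acly, which supplies acetyl-CoA for fat synthesis, read 3949.2, 3428.2, 6412.5 and 9042.0 against 516.2, 747.2, 463.8 and 422.3 (log2 3.34, SE 0.27, adjusted p = 2.21e-09), and 2 other Acly probe sets were at 3.90, called, and 0.69, uncalled. Pnpla3 (362972), a lipid droplet enzyme, was at the floor on all EDL arrays and at least 13.3-fold higher (adjusted p = 6.92e-09). Adh1c (24172), an alcohol dehydrogenase, was at log2 3.80 (SE 0.47, adjusted p = 2.07e-06), and Ttc38 (300125) at 3.69 (SE 0.27, adjusted p = 2.73e-10). The epithelial adhesion gene Epcam varied alike over EOM arrays, at 83.5, 244.8, 391.9 and 744.0 against 51.2, 7.7, 18.5 and 43.8 in EDL (log2 2.95, SE 0.47, adjusted p = 5.81e-05). Other members of its list did not: Klk1 was highest in EOM replicate 1 and lowest in replicate 4, and Spt1 was highest in replicate 3. The summed signal of that list was 6916 to 8010 units over the EOM arrays. Within replicates 1 and 2 this list, of orbital gland, epithelium and retina, had a median EOM minus EDL difference of 0.35. Within replicates 3 and 4 it was 0.98, a value that depends on the EDL arrays as well. The part of such cells in the levels of these lipid genes was not tested.

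Among the genes that were lower in EOM, Car3 (54232), the carbonic anhydrase of slow fibres and fat, read 464.9, 210.6, 448.4 and 708.3 units in EOM and 7339.8, 4076.9, 10969.5 and 5877.1 in EDL (log2 -3.98, SE 0.56, adjusted p = 1.12e-05). Aldh1l1 (64392), a folate enzyme, read 232.6, 259.0, 318.3 and 414.9 against 1667.0, 1995.1, 1358.8 and 1636.8, and its difference was -2.46, -2.46 and -2.47 at 6, 18 and 30 months. Amhr2 (29530), a receptor for anti-Müllerian hormone, read 10.9, 24.9, 34.5 and 36.0 against 356.2, 339.8, 99.4 and 175.3 (log2 -2.82, SE 0.45, adjusted p = 5.87e-05), with 2 EOM arrays at the floor. Polr1a (83581), the large subunit of RNA polymerase I, was at the floor on 3 EOM arrays and at 391.6, 340.8, 194.8 and 115.7 in EDL (log2 -3.01, SE 0.49, adjusted p = 7.66e-05), after differences of -0.06 and -0.80; its change of -2.58 had an adjusted p of 0.0516. Adra1b, an adrenergic receptor, was at -2.48 (SE 0.38, adjusted p = 4.21e-05) and Pvr, the nectin-like adhesion protein, at -2.42 (SE 0.47, adjusted p = 0.000557). Cdv3 (log2 -2.63, adjusted p = 0.00707) read 475.5 in EDL replicate 1 and 225.4 to 256.7 in the other EDL arrays. Gabrr2, a GABA receptor subunit, was at the floor on all 4 EOM arrays and at least 5.53-fold lower, from 461.8, 204.8, 46.3 and 136.7 in EDL (adjusted p = 0.00396).

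Genes of other cell types also differed, and in bulk muscle fewer cells of a type and less RNA per cell cannot be told apart. Of 26 measured Schwann cell and nerve genes, 9 were higher in EOM, 1, Mapt, was lower and 16 were not called (median 0.60). Over all genes 12.2% were higher and 8.01% lower. The summed signal of the list was 12630 to 15870 units in EOM and 7120 to 10190 in EDL. Mag, the defining gene, was above the floor on all 8 arrays. Of the other Mapt probe sets, that at -0.65 was called lower (adjusted p = 0.0102) and that at -0.40 was not (adjusted p = 0.08). The call of the brightest Mapt probe set was lost without any one of EOM replicates 1 to 4, and without EDL replicate 2 or 4. Nefm, a neurofilament, read 392.0, 429.5, 547.3 and 316.9 in EOM and 49.0, 62.4, 13.2 and 21.3 in EDL (log2 3.37, SE 0.33, adjusted p = 5.08e-08). Prx, the periaxin of myelin, was at 2.43 (SE 0.42, adjusted p = 0.000167) and S100b at 2.52 (SE 0.53, adjusted p = 0.0013). Of 13 smooth muscle and pericyte genes, 6 were higher and 1, Des, was lower (median 1.10; summed signal 39050 to 54420 in EOM and 52000 to 68760 in EDL, with Tagln and Myh11 above the floor throughout). That list also names Des, Tpm1 and Tpm2, which skeletal fibres make as well, so its summed signal is not of smooth muscle alone. Cnn1, the smooth muscle calponin, was at 2.12 (SE 0.28, adjusted p = 5.86e-06). Acta2 was called higher by its brightest probe set and another (1.43 and 1.71) and was at -0.40, uncalled, by one more. Of 6 red cell genes, 4 were higher (median 1.40; summed signal 13130 to 24020 against 4292 to 5219), with Hbb, the beta globin, at 2.11 (SE 0.28, adjusted p = 6.16e-06).

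Matrix and immune lists depended on the arrays. Among the 43 measured genes of the extracellular matrix, 10 were called higher and 4 lower, with a median of 0.53, and of 0.93 when only replicates 1 and 2 were used and of 0.02 with replicates 3 and 4. Without EDL replicate 1 the counts were 7 and 3. The summed signal was 46080 to 71670 in EOM and 35090 to 60230 in EDL. Fbln5, an elastic fibre protein, read 733.2, 655.4, 782.4 and 810.7 in EOM and 274.2, 169.4, 303.5 and 240.8 in EDL (log2 1.62, SE 0.23, adjusted p = 1.3e-05), and Comp, a cartilage and tendon protein, was lower (log2 -1.96, SE 0.44, adjusted p = 0.00216). The collagens Col1a1 (log2 -0.16, adjusted p = 0.82) and Col3a1 (0.84, adjusted p = 0.109) were not called, and EOM replicate 3 was the lowest for Col3a1 at 836.0 against 2121 to 2481 in the others. Of 19 macrophage, complement and inflammation genes, 4 were higher and 0 lower in limma (5 and 0 at an unadjusted p under 0.05; median 0.54, with 1.10 and 0.12 in the same sets of replicates); Csf1r was at the floor on 3 EDL arrays and no EOM array, and Itgam on 4 EOM and 3 EDL arrays. C3, a complement protein, was at the floor on all EDL arrays and at 105.7, 231.4, 238.0 and 309.1 in EOM (at least 7.05-fold, adjusted p = 2.93e-06; a second C3 probe set at log2 1.63, called), and C1s was at 1.34 (SE 0.25, adjusted p = 0.000348). The 4 called genes of the macrophage, complement and inflammation list were C3, C1s, C1r and Serping1, all of complement. Its members Cd14 (log2 0.01, adjusted p = 0.991), Aif1 (0.16, adjusted p = 0.822), Cd53 (0.54, adjusted p = 0.47) and Ctss (0.91, adjusted p = 0.0797) were not called. The part of matrix and immune cells in the muscle difference was not tested.

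The called genes of the fat and vessel lists were higher in EOM in the main fit, and gland and epithelial markers were mixed. Of 19 adipocyte and lipid synthesis genes, 5 were higher and 0 lower in limma (8 and 1 at an unadjusted p under 0.05; median 0.44; summed signal 22020 to 31470 in EOM and 12730 to 15560 in EDL); Plin1, a defining gene, was at the floor on 1 EOM and 2 EDL arrays, and Lep on none. The called genes of that list were Fasn, Acly, Cidea, Scd and Lpl. Its members Fabp4 (log2 0.18, adjusted p = 0.696), Cfd (0.09, adjusted p = 0.903) and Agt (-1.06, adjusted p = 0.0952) were not called. Of 13 endothelial genes, 3 were higher and 0 lower in limma, and 8 had a positive difference. After quantile normalisation, and also after median centring, 3 were higher and 1 lower. Ace, angiotensin-converting enzyme, was at 1.5 (SE 0.29, adjusted p = 0.00056) and Aqp1 at 0.93 (SE 0.23, adjusted p = 0.00511), while Flt1 was at -0.15 (adjusted p = 0.73). Pecam1 and Vwf were above the floor on all arrays. Of 17 genes of orbital gland, epithelium and retina, 4 were higher and 1, Krt18, was lower (median 0.52; summed signal 6916 to 8010 in EOM and 3864 to 8397 in EDL), and Epcam was at the floor on 2 EDL arrays. Spt1, a salivary protein, read 160.1, 254.7, 272.7 and 229.2 in EOM and 33.6, 22.5, 43.2 and 16.3 in EDL without a call (log2 2.80, SE 1.24, adjusted p = 0.123), after differences of 6.52 and 6.20. Limma called 0 of 9 lymphocyte genes (3 higher and 0 lower at an unadjusted p under 0.05; 2 called after quantile normalisation and 1 after median centring) and 0 of 5 mast cell genes (0 at an unadjusted p under 0.05), and Cd2 was at the floor on all 8 arrays.

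**Figure D5:**
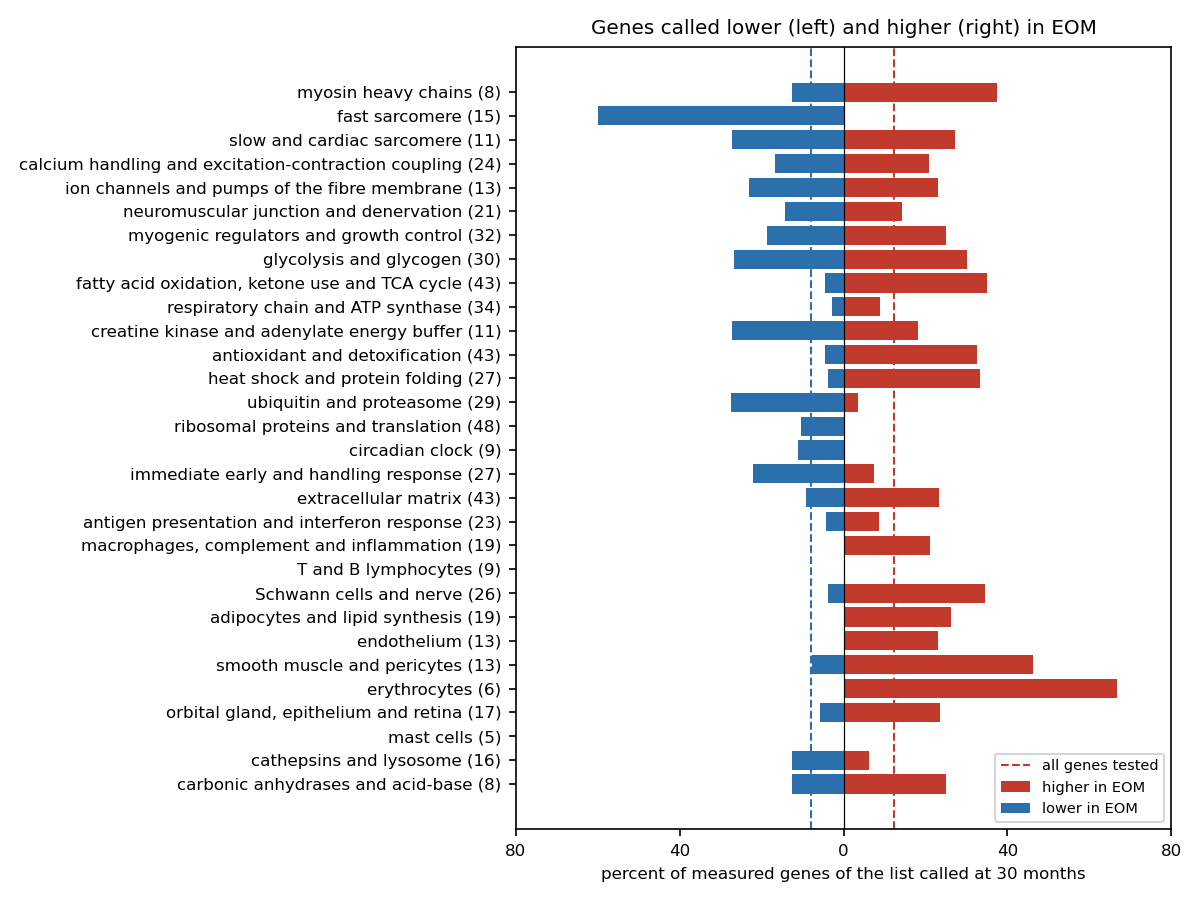
Percent of the measured genes of each list (number in parentheses) called lower in EOM (blue, to the left) and higher in EOM (red, to the right) at 30 months; dashed lines mark the shares over all 3419 genes, 8.01% lower and 12.2% higher. The fast sarcomere list has 9 of 15 genes lower and none higher, and the ribosomal list 5 of 48 lower and none higher.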

How the data were processed

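The deposited table holds 1 signal intensity per probe set and array; per the submitters' processing notes and the series' design text, the authors made it with Affymetrix Microarray Suite 5.0. After trimming 2% at each end, the mean intensity was 500.7 to 501.1 on every array, so the deposited values were scaled between arrays; background steps are not given in the sources used here. Depth does not apply to arrays: 4 pools a group limit the precision, and p-values measure the spread between pools.

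Values below each array's 25th percentile were raised to it before the log2 transform. Testing required a signal above the array's 40th percentile on at least 3 of 4 arrays of a group, which left out 2999 of 8740; 59 controls were removed before. One model over 24 arrays (limma 3.58.1, R 4.3.3, eBayes with trend, 18 residual degrees of freedom) gave each muscle difference and its change with age, with Benjamini-Hochberg adjustment over 5741 probe sets. Fold changes of probe sets near the floor are understated. Permutation tests used scipy 1.17.1. The code was tested on simulated data. Symbols came from the platform annotation (7006 probe sets with 1 symbol, 308 with several, 1426 with none); of their Entrez identifiers, 6985 were found in RefSeq. A gene was read through its brightest probe set.

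Named are the 12 largest called rises and falls without overlap, the 8 largest called changes with age in each direction (all above the median of all values, 116.6 units), the 3 largest called rises and falls of each list, key genes of the lists, and up to 2 unnamed probe sets a direction. Other genes of the age contrast, and second probe sets, were named after their values were seen. The arrays, genes and lists were chosen with earlier results of these data known. Replicate numbers were not taken as pairs. Alternatives were other scalings, floors, filters, weights, thresholds and array subsets; within-replicate fits and leaving out younger arrays were chosen after seeing the data.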

Additional observations from a re-analysis of the deposited data

Results flagged for a closer look

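In 28 of 328 groups of 4 arrays tested (8.54%), 1 array of 30 months lay apart from its group by Dixon's criterion; chance flags about 1 in 20 groups. EDL replicate 1 was the lowest for Myh3 (1968.2 units, others 3292 to 3653), Atp1b1 (3764.9), Cpt1b (5890.3), Elovl5 (294.5) and Prx (32.6, others 212.2 to 298.5), and the highest for Bdh1 (76.6, others 8.5 to 17.8), Bhlhe40 (1013.0) and Krt19 (98.6). EDL replicate 2 was the lowest for Acsl5 (88.1) and Ampd1 (4809.9), and the highest for Aqp1 (2150.6), Myh8 (69.9, others 6.7 to 27.4), Pfkfb1 (1441.2) and Psmc1 (3630.0). EDL replicate 3 was the lowest for Chrne (433.8, others 680.3 to 697.0) and Cox8a (3887.8), and the highest for Lum (644.1) and Pln (64.0). EDL replicate 4 was the lowest for Tnnt2 (90.5) and the highest for Eif2b4 (2572.8). In EOM, replicate 1 was the highest for Chrna1 (2065.5, others 1657 to 1699), Hk1 (1694.7) and Klk1c3 (433.8). EOM replicate 2 was the lowest for Atp1b2 (127.4) and Runx1 (238.5), and EOM replicate 3 was the lowest for C1r (787.0) and Col3a1 (836.0) and the highest for Pdia3 (1475.7).

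The muscle difference at 30 months differed from its mean at 6 and 18 months, by limma's contrast, in 14 genes. The change was -3.64 for Klk1, -3.24 for Ankrd1, -3.08 for Chrna1, -2.84 for Gadd45a, -2.55 for Fst, -1.97 for Chrnd and -1.92 for Igf2. It was -1.87 for Runx1, -1.71 for Mybph, -1.41 for Ctsl, -1.37 for Slc29a1, -1.23 for Klk1c3, -1.07 for B2m and -0.84 for Chrnb1.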

How the results depend on the processing

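For EOM against EDL at 30 months, the count of 1103 probe sets was 646 within replicates 1 and 2, 404 within replicates 3 and 4, 648 at an adjusted p under 0.01, 670 with a 2-fold minimum and 641 by the design text's rule of 16 pairwise array comparisons; its other alternatives gave 887 to 1557. The percent of calls that were higher in EOM was 59.5, and 65.6 after median centring. The change-with-age count of 24 was 10 after median centring, 48 with the replicate number as a block, 39 with array weights, 13 without the eBayes trend, 13 within replicates 1 and 2, 1 within replicates 3 and 4, 10 at an adjusted p under 0.01 and 11 against 6 months alone. It ranged from 11 to 43 when 1 array was left out. Against 18 months alone 19 were called, 2 of them higher; in the other alternatives limma called none higher. Of 138 named called probe sets, 64 kept their call in all 20 alternatives and none changed sign; 65 lost it within replicates 3 and 4. Other probe sets reversed the sign, without a call, in Acta2 (-0.40), Ccnd1 (-0.14), Igf1 (-0.43, -0.81 and -0.54) and Pfkfb1 (0.14); the cause was not tested. Of 570 alternative list medians, 16 changed sign, and 5 moved beyond the replicate spread. Under the replicate block the 30-month count was 1557, no named call was lost, and 11 of 26 named genes without a call gained one: Ache, Atp2a1, Chrng, Ckb, Ckm, Cryab, Myh1, Pdk4, Pvalb, Pygm and Tnnt3. Deviations of same-numbered EOM and EDL arrays correlated at 0.08, 0.28, 0.30 and 0.39 at 30 months, and 3 of 4 EOM arrays correlated best with their own number. Signals at the floor limit the size of any difference there.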

Other observations

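Carbonic anhydrase and bicarbonate genes, beyond Car3, included rises in EOM. Slc4a3, an anion exchanger, read 1582.6, 1063.9, 1114.6 and 1220.8 units in EOM and 291.0, 341.7, 371.4 and 397.4 in EDL, without overlap (log2 1.82, SE 0.27, limma adjusted p = 2.91e-05). Car5b, a mitochondrial carbonic anhydrase, was at the floor on 3 EDL arrays and higher in EOM (log2 2.22, SE 0.39, adjusted p = 0.000205).

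Of 9 measured clock genes, 1 was lower and 0 were higher in limma (2 and 0 at an unadjusted p under 0.05). That gene was Bhlhe40, a repressor of the clock, at log2 -1.0 (SE 0.29, adjusted p = 0.0158), and it was not called without EDL replicate 1 (0.0694) or EOM replicate 3 (0.0602). Of 23 antigen presentation genes, 2 were higher and 1 lower, and of 16 cathepsin and lysosome genes, 1 was higher and 2 were lower. Over all genes 12.2% were higher and 8.01% lower, and the small counts of this paragraph are near those shares.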
